A study of Mus musculus with 15 samples.

Results

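The gastrocnemius (GS) motor pool, the set of spinal motor neurons that supplies this calf muscle, was set against 4 other hindlimb pools. Its members were the 3 RNA-seq libraries labelled GS, of 15 in the series. The other 12 libraries came, 3 each, from pools of 3 shin muscles, tibialis anterior (TA), extensor digitorum longus (EDL) and peroneus longus (PL), and of the intrinsic muscles of the foot (IF). All 15 libraries were from wild-type mice. Every group had CTB-Alexa 555, a fluorescent retrograde tracer, injected into its muscle at postnatal day 4, and laser capture of the labelled neurons followed at postnatal day 6. Strain and sex are not given in the labels. Each library holds RNA of 30 to 40 neurons pooled over 2 to 5 mice. Which mice went into which library is not stated, so p-values measure the spread between pooled libraries of a pool. A captured area can hold RNA of cells that touch the neuron, and in such bulk samples fewer cells of a type and less RNA per cell cannot be told apart.

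Motor neurons that supply one limb muscle lie together as a pool, and pools are grouped into columns. In the lateral motor column, neurons of the medial part express the LIM homeodomain factor Isl1 and send axons to ventral limb muscle, while neurons of the lateral part express Lhx1 and supply dorsal muscle. The gastrocnemius and the muscles of the sole derive from ventral muscle, and TA, EDL and PL from dorsal muscle. Motor neurons release acetylcholine, and subsets also make neuropeptides, which are cut from larger precursors, stored with granins in dense-core vesicles and released beside the main transmitter.

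Gene counts summed to between 5488780 and 6506965 per GS library and to between 4417114 and 8488368 over all 15. Genes with at least 1 read numbered 16429 in GS 1, 13610 in GS 2 and 14798 in GS 3. The fewest such genes were in PL 3 (10548) and PL 2 (11019), apart from the rest, so results named below whose call changes without both are given both ways. Levels below are CPM, each gene's counts divided by the library total and scaled by TMM, a trimmed-mean scaling between libraries. A gene is called where edgeR's quasi-likelihood test gave a Benjamini-Hochberg adjusted p under 0.05 over 14340 genes. A difference is given as log2 fold ± SE with n = 3 libraries per pool. This SE is the absolute log2 fold divided by the square root of the test's F value. It is thus worked back from the test and not estimated directly from the 3 libraries.

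The captured cells carried the genes of acetylcholine handling. Chat, which makes acetylcholine, stood at 135, 156 and 156 CPM in the GS libraries and at 66.2 to 495 CPM in the other 12. Slc5a7, the choline transporter, stood at 875, 842 and 1427 CPM in GS and at 706 to 1906 CPM in the others. For both genes the GS values lay inside the range of the other pools. Isl2 and Mnx1, homeodomain factors of motor neurons, were low and uneven, at 7.89, 24.0 and 61.7 CPM and at 5.85, 35.1 and 6.37 CPM in GS. The vesicular acetylcholine transporter gene was not analysed here.

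Against the mean of the other 4 pools, 18 genes were called, or 0.126% of the genes tested. Of these, 13 were higher in GS (0.0907%) and 5 were lower (0.0349%). Only 3 of the 18 had all 3 GS libraries above the 12 others, and 2 had all 3 below, while 13 overlapped them. Over all tested genes, 36 (0.251%) lay wholly above and 18 (0.126%) wholly below. The median log2 difference over all genes was 0.04, and 834 genes had an unadjusted p under 0.05, of which 626 were higher in GS. Without PL 2 and PL 3, 19 genes were called, 10 higher and 9 lower, and 11 of the 18 were among them. The 7 lost were Drd1a, Cdh17, Hsd17b14, Thbs2, Ankrd45, BC057022 and Pirt. With limma voom, all 5 lower genes and Ankrd45, BC057022 and Pirt lost the call (adjusted p 0.0599 to 0.378). Sst, the somatostatin precursor gene, and Isl1 led the called genes.

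**Figure D1:**
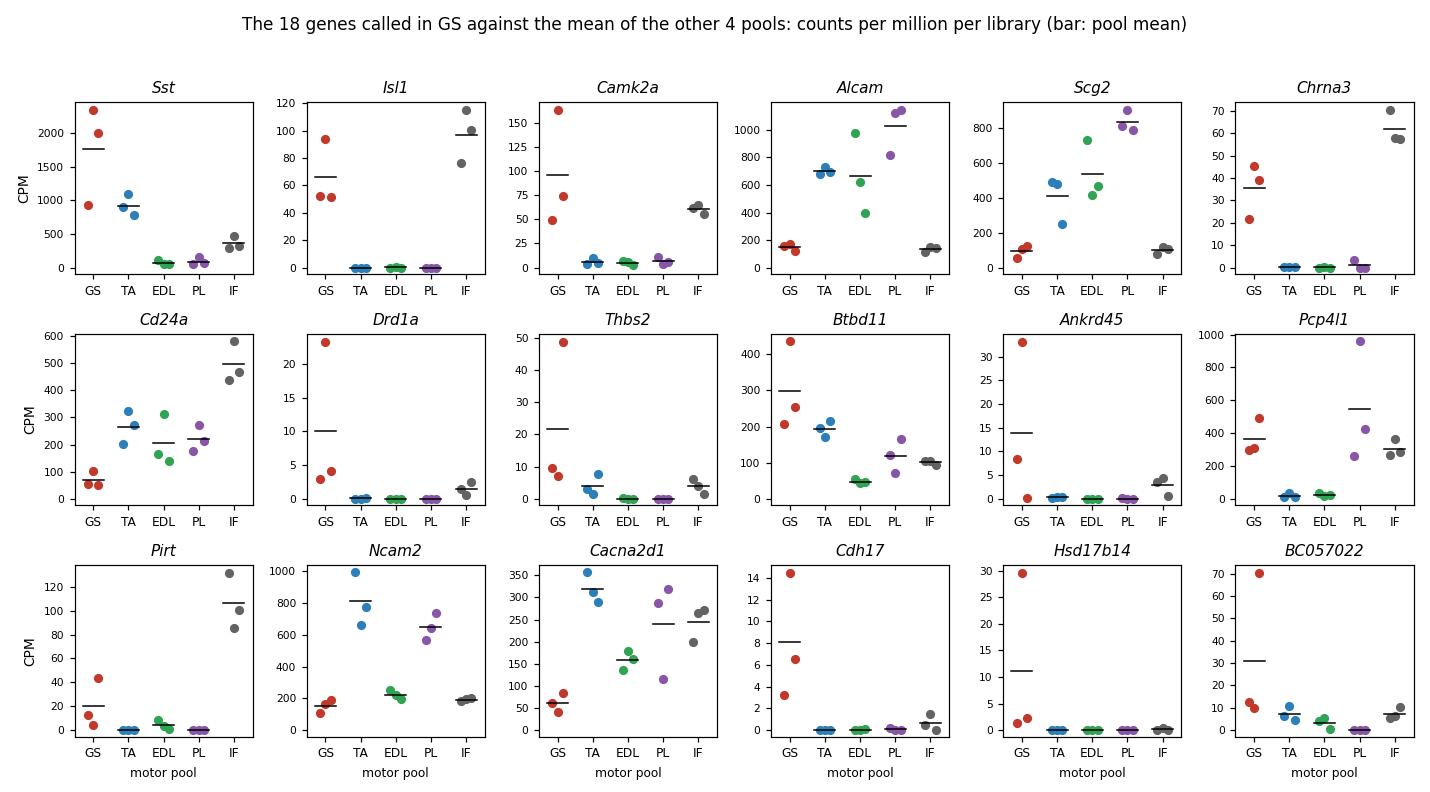
TMM-scaled CPM (linear axes) of the 18 genes called in GS against the mean of the other 4 pools, in order of adjusted p. Each point is 1 library and each bar the mean of 3. Sst, Cd24a and Cacna2d1 show 3 GS points apart from most of the other 12, whereas Drd1a, Thbs2, Ankrd45, Hsd17b14 and BC057022 show 1 high GS point.

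**Figure D2:**
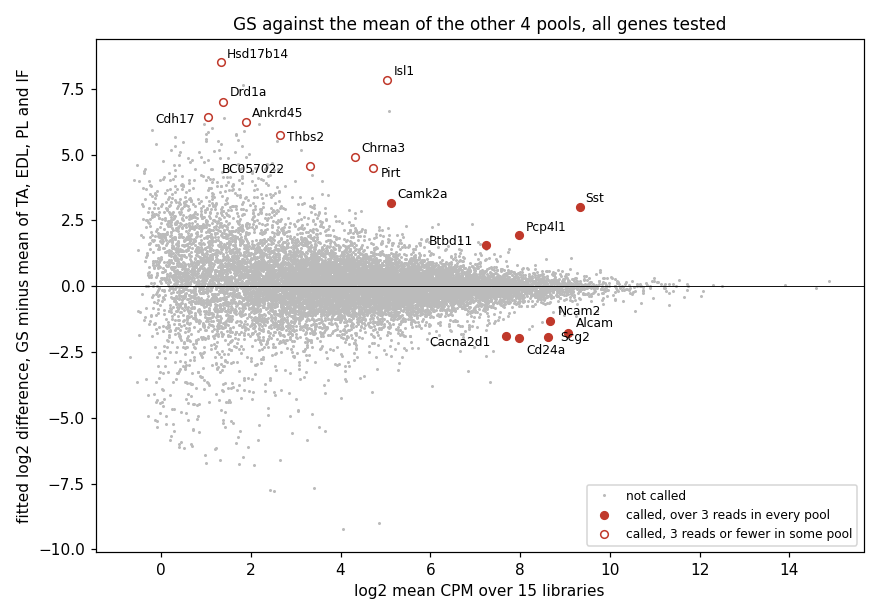
Log2 mean CPM over 15 libraries (horizontal) against the fitted log2 difference, GS minus the mean of TA, EDL, PL and IF (vertical), for all 14340 genes tested. Filled red points are called genes with over 3 reads in every pool, and open points are called genes with 3 reads or fewer in some pool, whose fitted size depends on the count added to 0. Sst is the filled point at the upper right, and the 5 lower genes sit together below 0.

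Sst encodes the precursor of somatostatin, a peptide that acts on inhibitory G protein-coupled receptors. The start of the gene (mm9 chromosome 16, 23889667 to 23890931, minus strand) has a well-known cyclic AMP response element, the letters TGACGTCA, which CREB binds. The promoters of the called genes were searched for these letters. The 120 bases before the RefSeq start site are shown for the called genes in which they were found. These were Sst (GRCm38.p6, chr16:23890845-23890964, minus strand) and Scg2 (GRCm38.p6, chr1:79440027-79440146, minus strand), a granin gene called lower in GS. Capitals mark TGACGTCA.
Sst: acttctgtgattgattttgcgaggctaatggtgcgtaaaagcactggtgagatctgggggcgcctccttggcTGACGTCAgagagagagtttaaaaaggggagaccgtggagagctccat
Scg2: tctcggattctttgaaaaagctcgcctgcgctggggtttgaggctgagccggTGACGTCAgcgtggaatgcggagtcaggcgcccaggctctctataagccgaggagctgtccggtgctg
In Sst the element began 48 bases before the start site, and in Scg2 it began 68 bases before it. Of 32851 RefSeq promoter windows of this length, 1.24% held these letters, which read the same on both strands. Promoter windows were matched for 12 of the 18 called genes, and Sst and Scg2 were the only 2 of the 12 with a match. These 2 genes, picked by the element, differed from the other pools in opposite directions. The part of the element in their levels was not tested.

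Sst stood at 936, 2342 and 2005 CPM in GS 1, GS 2 and GS 3, from 6402, 13757 and 12286 reads. It stood at 897, 1089 and 779 CPM in TA and at 287, 467 and 322 CPM in IF. In EDL it was at 108, 55.3 and 58.0 CPM, and in PL at 47.3, 154 and 71.3 CPM. GS 2 and GS 3 lay above all 12 other libraries, and GS 1 lay inside the range of TA. Over the mean of the 4 pools, Sst was higher by 3.02 ± 0.29 on the log2 scale (edgeR, Benjamini-Hochberg adjusted p 4.16e-05). The difference was 4.57 ± 0.48 against EDL (adjusted p 0.000238), 4.28 ± 0.48 against PL (0.000539) and 2.29 ± 0.44 against IF (0.0393), each by edgeR with Benjamini-Hochberg adjustment. Against TA it was 0.93 ± 0.42 and did not pass (edgeR, Benjamini-Hochberg adjusted p 0.663). The order of pools was thus GS, TA, IF, PL and EDL by mean, with GS and TA overlapping and PL and EDL overlapping. The call over the 4 pools held without any single library (highest adjusted p 0.00153), but not with the other 12 libraries fitted as 1 group (2.29 on the log2 scale, edgeR adjusted p 1.00, where no gene was called). The call against PL was lost with only the 6 libraries of that pair in the fit (edgeR adjusted p 0.186).

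Other peptide precursors were compared as a group of 28 genes, of which 20 were tested. Sst was the only member called, 10 of the 20 lay above 0, and the median log2 difference was -0.02, beside 0.04 over all genes. Divided by gene length, Sst was at 2940.1 CPM per kilobase in GS, against 420.0 for Calca (calcitonin gene-related peptide), 166 for Calcb, 88.6 for Penk (enkephalins) and 31.2 for Nts (neurotensin). On that scale Sst was the most abundant of these 5 precursors in GS. Calca stood at 553, 737 and 575 CPM in GS and at 93.7, 116 and 78.3 CPM in IF, and these groups did not overlap. It was higher in GS than in IF by 2.69 ± 0.36 on the log2 scale (edgeR, Benjamini-Hochberg adjusted p 0.00185), while over the 4 pools its difference of 0.49 ± 0.26 did not pass (0.949).

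Nts put GS between the pools. It stood at 28.1, 53.3 and 28.6 CPM in GS, 599, 486 and 458 CPM in EDL and 214, 232 and 251 CPM in PL. In TA it was at 23.1, 30.2 and 45.2 CPM, overlapping GS, and in IF at 2.24, 5.12 and 4.48 CPM. GS was lower than EDL by -3.81 ± 0.45 and than PL by -2.67 ± 0.43 on the log2 scale, and higher than IF by 3.21 ± 0.44 (edgeR, Benjamini-Hochberg adjusted p 0.000576, 0.00931 and 0.00201). The call against PL was lost without GS 1 or GS 3 (adjusted p up to 0.125) and with only the 6 libraries of that pair (edgeR adjusted p 0.907). The call against IF was lost with limma voom (adjusted p 0.178). Over the 4 pools together Nts was at -0.78 ± 0.34 and did not pass (0.783). Vip, the precursor of vasoactive intestinal peptide, had no read in GS against 47.3, 54.9 and 63.4 CPM in IF, so GS was at least 341-fold lower, taking 3 reads over the GS libraries as the limit.

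Genes that store and process peptides did not follow Sst. Of 12 granin and processing genes tested, Scg2 was called lower in GS and none was called higher, with a median log2 difference of 0.04. Scg2, whose product secretogranin II is a vesicle protein and itself a peptide precursor, stood at 57.0, 108 and 126 CPM in GS and at 80.2, 119.7 and 107 CPM in IF. It stood at 492, 479.8 and 252 CPM in TA, 730.2, 413 and 465 CPM in EDL and 813, 903 and 788 CPM in PL. GS overlapped IF and lay below all 9 libraries of TA, EDL and PL. The difference over the 4 pools was -1.93 ± 0.32 on the log2 scale (edgeR, Benjamini-Hochberg adjusted p 0.0245). By pair it was -2.07 ± 0.37 against TA (adjusted p 0.0351), -2.47 ± 0.37 against EDL (0.00834), -3.10 ± 0.38 against PL (0.000812) and -0.08 ± 0.35 against IF (1.00), by edgeR with Benjamini-Hochberg adjustment. The call over the 4 pools was lost without any 1 of GS 1, GS 2, GS 3, IF 2 and IF 3 (adjusted p up to 0.117). The pair call held without each single library against PL, but was lost against EDL without GS 1, GS 2 or EDL 1 (up to 0.0633) and against TA without any of 10 libraries (up to 0.201). With only the 6 libraries of GS and PL in the fit, the PL call was lost (edgeR adjusted p 0.186).

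Sst is also made by interneurons, so their markers were read beside it. Gad2, which makes GABA, stood at 62.7, 69.8 and 45.7 CPM in GS, above 11 of the other 12 libraries, whose remaining library PL 3 was at 364 CPM. Summed over the interneuron list, GS was at 383, 350.2 and 206 CPM against 123 to 1070 CPM in the other 12, so GS lay inside their range. The filter on low counts over all pools kept 8 of 19 members for testing. None of these 8 was called and 6 lay above 0. In GS, 8 genes of the list, among them Pax2, Lhx5, Lmx1b and Tlx3, had no read. GS 2, the library with the most Sst, had the highest Gad2 in GS (69.8 CPM). Slc32a1, the vesicular GABA transporter, stood at 0.340 CPM in GS 2, and its values in the other libraries are not given here. The part of interneuron RNA in the Sst values was not tested.

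Receptors of somatostatin were low in GS. Summed over the 5 receptor genes, the GS libraries held 8.19, 10.9 and 24.5 CPM, inside the 2.20 to 84.6 CPM of the others. None of the 4 tested was called. Sstr5 stood at 1.46, 5.79 and 0.163 CPM in GS, and GS 3 overlapped the other pools, in which 1 library (EDL 3, 1.38 CPM) held reads.

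Isl1 separated GS and IF from the other 3 pools. The gene (mm9 chromosome 13, 117088478 to 117099897, minus strand) stood at 52.6, 94.1 and 51.4 CPM in GS, from 360, 553 and 315 reads, and at 76.1, 115 and 100.4 CPM in IF. It had no read in TA or PL, and 5 reads in EDL, all in EDL 2. GS overlapped IF and lay above all 9 libraries of the other 3 pools. The summed level was at least 372-fold above TA and at least 367-fold above PL, taking 3 reads over a pool as the limit, and 332 times that of EDL. Isl1 was called over the 4 pools (edgeR, Benjamini-Hochberg adjusted p 0.000371) and against TA (0.0103), EDL (0.0187) and PL (0.00758), but not against IF, where its log2 difference was -0.56 ± 0.90 (adjusted p 1.00). The call over the 4 pools held without each single library (highest adjusted p 0.00428) but not with the 12 others as 1 group (adjusted p 1.00), and the call against TA was lost without TA 1 (0.0590). Against EDL it was lost without any 1 of GS 1, GS 2, GS 3, EDL 1, EDL 3, IF 1, IF 2 and IF 3 (up to 0.105). Against PL it was lost with only the 6 libraries of that pair in the fit (edgeR adjusted p 0.221).

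Lhx1, the factor of the lateral part of the column, had no read in any GS library. It also had none in TA 3 and IF 2, and stood at up to 361 CPM (PL 2) elsewhere, so its GS values overlapped those of TA and IF. Of 24 factors of motor columns and pools that were tested, Isl1 was the only one called, 20 lay above 0, and the median log2 difference was 0.85 beside 0.04 over all genes. Foxp1, a factor of limb motor neurons, stood at 117, 219 and 143 CPM in GS and at 9.73, 15.4 and 23.6 CPM in EDL, with no overlap. Its difference from EDL was 3.30 ± 0.54 on the log2 scale (edgeR, Benjamini-Hochberg adjusted p 0.0163), lost without any 1 of GS 2, EDL 1, EDL 2 and EDL 3 (up to 0.205), and over the 4 pools it was 0.85 ± 0.37 (0.783). Pou3f1 and Cpne4, both at a few reads in GS (0 to 0.731 and 0.163 to 5.12 CPM), were at 22.2 to 23.0 and at 196 to 234 CPM in IF, the other pool with Isl1.

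Hox genes, which set position along the cord, gave no call among 24 tested, with a median log2 difference of 0.29. Hoxc10, a factor of the lumbar cord, stood at 106, 283 and 464 CPM in GS and at 8.86, 15.2 and 11.7 CPM in IF. The GS libraries all lay above those of IF and overlapped the other 3 pools, at 110.3 to 475 CPM. GS was higher than IF by 4.57 ± 0.56 on the log2 scale (edgeR, Benjamini-Hochberg adjusted p 0.00101), a call lost with limma voom (0.0602), and over the 4 pools by 1.31 ± 0.35, which did not pass (0.249). Of 9 Hox cofactors none was called. Meis2 stood at 41.2, 11.2 and 24.5 CPM in GS against 133, 125 and 168 CPM in TA, and its difference over the 4 pools was -1.51 ± 0.54 (edgeR, Benjamini-Hochberg adjusted p 0.598).

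Several of the called genes set GS and IF together, as Isl1 did. Camk2a, the alpha subunit of the calcium/calmodulin kinase II, stood at 49.4, 163 and 73.9 CPM in GS and at 61.7, 64.2 and 55.1 CPM in IF. In TA, EDL and PL it was between 2.26 and 10.5 CPM. GS overlapped IF and lay above the other 9 libraries. Its difference over the 4 pools was 3.17 ± 0.48 on the log2 scale (edgeR, Benjamini-Hochberg adjusted p 0.0134), lost without any 1 of GS 2, GS 3, IF 2 and IF 3 (up to 0.245). No single pair passed for Camk2a, with 3.97 ± 0.79 against TA (adjusted p 0.0885), 4.27 ± 0.80 against EDL (0.0525), 3.78 ± 0.78 against PL (0.0681) and 0.66 ± 0.70 against IF (1.00).

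Chrna3, the alpha 3 subunit of nicotinic acetylcholine receptors, stood at 21.6, 45.3 and 39.2 CPM in GS, from 654 reads in all. IF was higher, at 70.2, 57.7 and 57.4 CPM, and did not overlap GS. TA held 4 reads, EDL 2 and PL 33, the last all in PL 1 at 3.57 CPM. The summed level of GS was 149 times that of TA and 442 times that of EDL (95% counting interval 122 to 3654). The call over the 4 pools (edgeR, Benjamini-Hochberg adjusted p 0.0245) was lost without any 1 of GS 1, GS 2, GS 3, TA 2, TA 3, EDL 3, IF 1, IF 2 and IF 3 (up to 0.108), and no pair passed. Of its neighbours in the same gene cluster, Chrna5 stood at 2.34, 10.4 and 8.16 CPM in GS and at 1.08 to 13.7 CPM in the others, and Chrnb4 was too low to be tested. Chrna3 was the only 1 of 13 cholinergic genes called, with a median log2 difference of 0.04.

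Pirt, a membrane protein known from sensory neurons, was called higher over the 4 pools although IF held more. It stood at 12.4, 4.09 and 43.3 CPM in GS, at 132, 85.7 and 101 CPM in IF and at 8.80, 3.17 and 0.502 CPM in EDL. TA held 1 read and PL none, so GS was at least 112-fold above PL. GS overlapped EDL and lay wholly below IF. The call over the 4 pools (edgeR, Benjamini-Hochberg adjusted p 0.0411) was kept without PL 1, PL 2, PL 3 or EDL 1 and lost without any other single library (up to 0.418), as it was without PL 2 and PL 3 together. The call against PL (edgeR, Benjamini-Hochberg adjusted p 0.0395) was lost without any of 9 single libraries (up to 0.114). Pirt overlaps a gene model on the other strand, and the reads do not keep strand.

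Pcp4l1, a small relative of the calmodulin regulator Pcp4, stood at 299, 307 and 492 CPM in GS. TA was at 10.9, 37.9 and 11.6 CPM and EDL at 35.8, 14.6 and 24.3 CPM. PL at 259, 959 and 425 CPM and IF at 265, 367 and 287 CPM overlapped GS. Its difference was 4.18 ± 0.58 against TA (edgeR, Benjamini-Hochberg adjusted p 0.00722), 3.88 ± 0.58 against EDL (0.00834), -0.58 ± 0.51 against PL (0.616) and 0.26 ± 0.51 against IF (1.00). Over the 4 pools it was 1.93 ± 0.36 (edgeR, Benjamini-Hochberg adjusted p 0.0411), lost without any single library but TA 2, EDL 1, PL 1, PL 2 and PL 3 (up to 0.362). The TA pair was lost without TA 1 (0.0590) and the EDL pair without EDL 2 or EDL 3 (up to 0.0952).

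**Figure D3:**
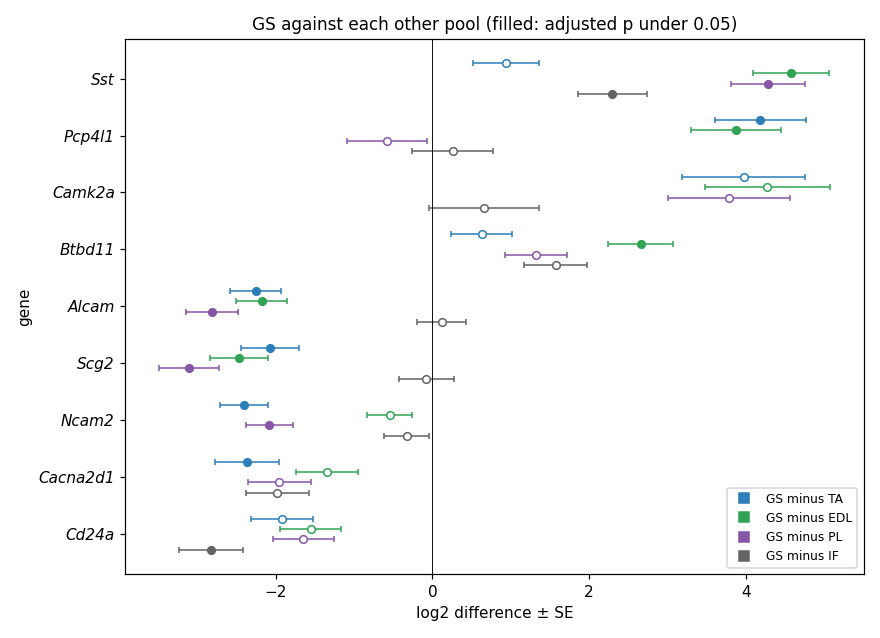
Log2 difference ± SE of GS against each of TA, EDL, PL and IF for the 9 called genes with over 3 reads in every pool, with filled points where the adjusted p was under 0.05. All 4 comparisons use the same 3 GS libraries. Sst is high against EDL and PL (4.57 and 4.28), while Alcam and Scg2 are low against TA, EDL and PL and near 0 against IF (0.12 and -0.08).

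Over the 4 pools, Alcam and Ncam2 were the called adhesion molecules of the immunoglobulin family. Of 23 tested in that comparison, both of these were lower in GS and none was called higher, 17 lay below 0, and the median log2 difference was -0.17. Alcam, which binds itself and guides motor axons, stood at 154, 168 and 118 CPM in GS and at 111, 152 and 143 CPM in IF. It stood at 682, 729.6 and 694 CPM in TA, 975, 621 and 398 CPM in EDL and 815, 1120.5 and 1147 CPM in PL. GS overlapped IF and lay below the other 9 libraries. The difference over the 4 pools was -1.78 ± 0.28 on the log2 scale (edgeR, Benjamini-Hochberg adjusted p 0.0174). By pair it was -2.26 ± 0.33 against TA (adjusted p 0.00744), -2.18 ± 0.32 against EDL (0.00834), -2.81 ± 0.33 against PL (0.000679) and 0.12 ± 0.31 against IF (1.00), by edgeR with Benjamini-Hochberg adjustment. Over the 4 pools the call was lost without any 1 of GS 1, GS 2, GS 3, IF 2 and IF 3 (up to 0.12), against TA without GS 3 (0.0869) and against EDL without GS 2, GS 3 or EDL 1 (up to 0.0677). Against PL it was lost with only the 6 libraries of that pair in the fit (edgeR adjusted p 0.186).

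Ncam2, a neural adhesion molecule, stood at 108, 163 and 190.2 CPM in GS. TA at 996, 660.3 and 777 CPM and PL at 569.8, 643 and 738 CPM lay far above. EDL at 254, 222 and 195 CPM lay just above GS, and IF at 183, 193 and 202 CPM overlapped it. The differences were -2.40 ± 0.30 against TA (edgeR, Benjamini-Hochberg adjusted p 0.00348), -2.08 ± 0.30 against PL (0.00436), -0.54 ± 0.29 against EDL (1.00) and -0.33 ± 0.29 against IF (1.00). The TA and PL calls held without each single library (highest adjusted p 0.0388 and 0.0422). With only the 6 libraries of the pair in the fit, the TA call held and the PL call was lost (edgeR adjusted p 0.7996). Over the 4 pools Ncam2 was at -1.34 ± 0.25 (edgeR, Benjamini-Hochberg adjusted p 0.0411), a call kept only without PL 1, PL 2 or PL 3 (up to 0.234 without another library). Ncam1, its relative, stood at 359.9, 536 and 719.5 CPM in GS, inside the 315 to 964 CPM of the other 12.

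Cd24a and Cacna2d1 were the 2 genes whose 3 GS libraries all lay below the 12 others. Cd24a, a small surface glycoprotein of immature neurons, stood at 54.8, 104 and 51.6 CPM in GS against 139 to 582 CPM in the others, the highest in IF at 439, 582 and 469 CPM. Its difference was -1.99 ± 0.35 over the 4 pools (edgeR, Benjamini-Hochberg adjusted p 0.0378), and by pair it passed against IF at -2.82 ± 0.41 (0.00312). Against TA, EDL and PL it was -1.92 ± 0.39, -1.55 ± 0.39 and -1.65 ± 0.39 (edgeR, Benjamini-Hochberg adjusted p 0.100, 0.361 and 0.12). The call against IF held without each single library (highest adjusted p 0.0475), and that over the 4 pools was lost without any 1 of GS 1, GS 2, GS 3, TA 2, TA 3, IF 1, IF 2 and IF 3 (up to 0.211).

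Cacna2d1, the alpha 2 delta 1 subunit of calcium channels that gabapentin binds, stood at 60.7, 41.4 and 84.2 CPM in GS against 115 to 358 CPM in the others. The nearest library was PL 2 at 115 CPM, and the highest was TA 1 at 358 CPM. Its difference was -1.91 ± 0.35 over the 4 pools (edgeR, Benjamini-Hochberg adjusted p 0.0411) and -2.37 ± 0.41 against TA (0.0289). Both calls rested on most libraries: the first was kept only without PL 1, PL 2 or PL 3 (up to 0.274 otherwise) and the second was lost without any of 11 libraries (up to 0.202). Its relatives Cacna2d2, at 78.6, 106 and 119 CPM in GS, and Cacna2d3, at 70.8, 41.0 and 54.8 CPM, lay inside the range of the other pools. Cacna2d1 was the only call among 37 sodium, calcium and HCN channel genes, whose median log2 difference was -0.04.

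Btbd11, a BTB and ankyrin repeat protein found at synapses, was higher in GS at moderate levels. It stood at 207, 437 and 254 CPM in GS, and at 195, 170.3 and 215 CPM in TA. EDL was at 54.2, 42.7 and 45.7 CPM, PL at 122, 71.9 and 164 CPM and IF at 103, 105 and 93.7 CPM. GS overlapped TA through GS 1 and lay above the other 9 libraries. The difference was 1.55 ± 0.28 over the 4 pools (edgeR, Benjamini-Hochberg adjusted p 0.0390) and 2.66 ± 0.41 against EDL (0.00982). The first call was kept only without PL 1, PL 2 or PL 3 (up to 0.430 otherwise), and the second was lost without any 1 of GS 2, EDL 1, EDL 2 and EDL 3 (up to 0.160).

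The other 6 called genes were low, and most of their GS reads came from 1 library. Drd1a, the dopamine D1 receptor, stood at 2.92, 23.3 and 4.08 CPM in GS and at 1.53, 0.500 and 2.46 CPM in IF, with 1 read in the other 9 libraries. Cdh17, a cadherin best known from gut epithelium, stood at 3.22, 14.5 and 6.53 CPM in GS against at most 1.50 CPM elsewhere. Hsd17b14, a steroid dehydrogenase, stood at 1.32, 29.6 and 2.29 CPM in GS and had 3 reads in the other 12 libraries together. For these 3 genes every GS library lay above the 12 others, and GS 2 was the highest. The summed GS level of Hsd17b14 was at least 59.7-fold above TA, 88.7-fold above EDL and 58.9-fold above PL, and 86.2 times that of IF (95% counting interval 29.1 to 422). That of Drd1a was 6.64 times that of IF, at least 81.9-fold above EDL and at least 54.4-fold above PL. Cdh17 was 11.4 times IF and at least 44.5-fold above TA.

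Thbs2, the matrix glycoprotein thrombospondin 2, stood at 9.65, 6.98 and 48.8 CPM in GS and at up to 7.56 CPM (TA 3) elsewhere. BC057022, a clone name, stood at 12.7, 10 and 70.4 CPM in GS and at up to 10.8 CPM (TA 2) elsewhere, and Ankrd45, an ankyrin repeat protein, at 8.33, 33.2 and 0.163 CPM in GS and at up to 4.50 CPM (IF 2). GS overlapped the other pools in all 3, through GS 2 for Thbs2 and BC057022 and through GS 3 for Ankrd45. The adjusted p over the 4 pools (edgeR, Benjamini-Hochberg) was 0.0386 for Drd1a and for Thbs2, 0.0407 for Ankrd45, 0.0457 for Cdh17 and for Hsd17b14, and 0.0485 for BC057022. Cdh17 and Hsd17b14 lost the call without any 1 of the 15 libraries (up to 0.274 and 0.404), and Drd1a and BC057022 without any 1 except PL 1, PL 2 or PL 3 (up to 0.274 and 0.713). Thbs2 kept it only without EDL 1 or a PL library (up to 0.418) and Ankrd45 only without PL 1 or PL 3 (up to 0.404). Without PL 2 and PL 3 together, none of the 6 was called. In GS 3, where Thbs2 and BC057022 were highest, the summed fibroblast and meningeal markers were 53.2 CPM, against 12.9 in GS 1, 8.68 in GS 2 and 6.71 to 218 CPM in the others. No member of that list of 9 tested was called, Slc22a6 was at 0 in GS, and the part of such cells in these values was not tested.

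**Figure D4:**
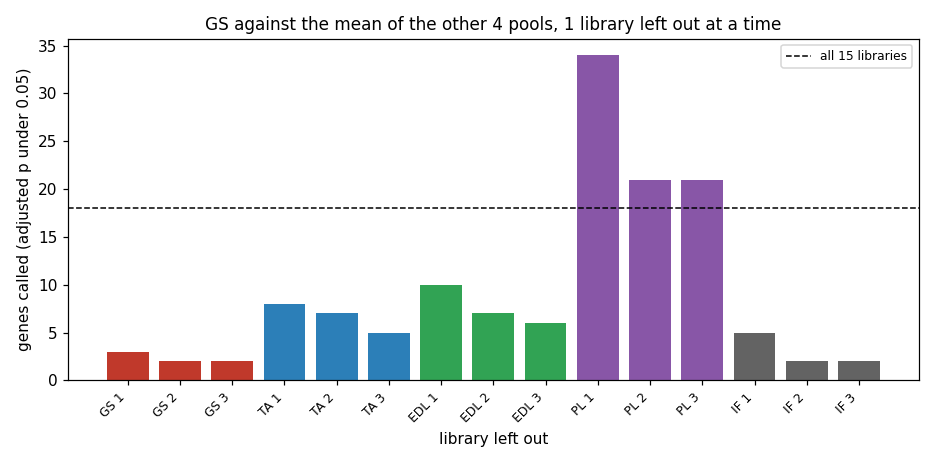
Genes called in GS against the mean of the other 4 pools (vertical, from 0) when the library on the horizontal axis was left out, with a dashed line at the 18 genes called from all 15. The count fell to 2 without GS 2, GS 3, IF 2 or IF 3 and rose to 34 without PL 1.

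The number of calls depended on single libraries. It was 2 without GS 2, GS 3, IF 2 or IF 3, and 3 without GS 1. It was 5 without TA 3 or IF 1, 6 without EDL 3, 7 without TA 2 or EDL 2, 8 without TA 1, 10 without EDL 1 and 34 without PL 1. Sst and Isl1 were the 2 of 18 genes called in all 15 of these fits.

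Each pair of pools was also read on its own, to show which pool a GS difference holds against. The 4 pairs share the 3 GS libraries, so their values are set side by side and not counted as separate evidence. Many genes described for a pair, here and above, were picked because they were called and their libraries did not overlap. For those genes the lack of overlap was fixed by the choice and is not a further result. The share of all genes without overlap was not counted by pair. Against TA, 9 genes were called (0.0628%), 4 higher in GS (0.0279%) and 5 lower (0.0349%), with 1024 genes at an unadjusted p under 0.05. They were Isl1, Pcp4l1, Hs3st4 and Negr1, higher, and Alcam, Ncam2, Scg2, Cacna2d1 and Parm1, lower. Hs3st4, a heparan sulfate sulfotransferase, stood at 58.0, 88.9 and 144 CPM in GS and at 4.41, 3.25 and 0.879 CPM in TA, with no overlap. Its difference was 5.08 ± 0.76 (edgeR, Benjamini-Hochberg adjusted p 0.00939), lost without TA 1 or TA 2 (up to 0.0590). EDL at 87.8, 82.3 and 68.1 CPM and IF at 114, 107 and 106 CPM overlapped GS, so among these 3 pools TA was the one apart from GS. The summed level of GS was 0.668 times that of PL, where Hs3st4 was not called.

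Negr1, an adhesion molecule of the immunoglobulin family, stood at 244, 435 and 480.1 CPM in GS and at 81.2, 73.0 and 121 CPM in TA (2.07 ± 0.35, edgeR, Benjamini-Hochberg adjusted p 0.0259). Parm1, a mucin-like membrane protein, stood at 113, 281 and 229.7 CPM in GS and at 1203, 719 and 806 CPM in TA (-2.13 ± 0.34, edgeR, Benjamini-Hochberg adjusted p 0.0148). Neither gene overlapped between these pools. The call of Negr1 was lost without any 1 of GS 2, GS 3, TA 1, TA 2, IF 1, IF 2 and IF 3 (up to 0.177) and that of Parm1 without GS 1, GS 3 or TA 1 (up to 0.147). With limma voom, Hs3st4, Negr1, Pcp4l1 and Scg2 lost the call against TA (adjusted p up to 0.124). Ncam2 was the only 1 of the 9 called without each single library. The count was 4 without GS 3, 2 without TA 1 and 21 without PL 3.

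Against EDL, 10 genes were called (0.0697%), 6 higher in GS (0.0418%) and 4 lower (0.0279%), with 543 genes at an unadjusted p under 0.05. Higher were Sst, Isl1, Pcp4l1, Btbd11, Foxp1 and Ndst4, and lower were Nts, Alcam, Scg2 and Ly6a. Ndst4, a heparan sulfate modifying enzyme, stood at 62.6, 56.2 and 62.5 CPM in GS and at 2.32, 2.26 and 8.03 CPM in EDL (3.84 ± 0.67, edgeR, Benjamini-Hochberg adjusted p 0.0260). Ly6a, a surface protein of endothelial cells, stood at 2.63, 2.04 and 2.12 CPM in GS and at 69.2, 297 and 107 CPM in EDL (-6.11 ± 1.02, edgeR, Benjamini-Hochberg adjusted p 0.0187). Neither overlapped between GS and EDL. The endothelial and pericyte markers summed to 155, 158 and 301 CPM in GS and to 159 to 1739 CPM in the other 12 libraries, so GS 1 and GS 2 lay just below the lowest of them. None of the 15 tested was called over the 4 pools, their median log2 difference was 0.18, and their part in the Ly6a value was not tested. Ndst4 lost its call without any of 8 libraries (up to 0.357) and Ly6a without any 1 of GS 1, GS 2, GS 3, EDL 2 and EDL 3 (up to 0.257). With limma voom, Foxp1, Ly6a and Ndst4 lost it (up to 0.0826). Sst and Nts kept theirs without each single library. The count was 6 without GS 1, 3 without GS 2, 5 without EDL 1, EDL 2 or EDL 3, and 20 without PL 3.

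Against PL, 17 genes were called (0.119%), 5 higher in GS (0.0349%) and 12 lower (0.0837%), with 2146 genes at an unadjusted p under 0.05. Higher were Sst, Isl1, Trhr, Pirt and BC057022. Trhr, the receptor of thyrotropin-releasing hormone, stood at 163, 147 and 299.5 CPM in GS and at 28.4, 4.79 and 11 CPM in PL, with no overlap (3.76 ± 0.61, edgeR, Benjamini-Hochberg adjusted p 0.0113). Among the lower genes, Plxna2, a semaphorin receptor, stood at 44.3, 59.8 and 139 CPM in GS and at 415, 1295 and 809.9 CPM in PL. Its difference was -3.38 ± 0.45 (edgeR, Benjamini-Hochberg adjusted p 0.00209), and over the 4 pools -1.50 ± 0.37 (0.186). Sox6, a transcription factor, stood at 19.0, 28.3 and 11.3 CPM in GS and at 162, 492 and 151 CPM in PL (-3.78 ± 0.59, edgeR, Benjamini-Hochberg adjusted p 0.00758), again with no overlap.

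The other lower genes of this pair were Alcam, Scg2, Ncam2, Nts, Lxn, Lifr, Setd2, Cnnm1, Kcnh7 and Pdzrn3. Without PL 2 and PL 3, 13 genes were called against PL 1 alone, 7 of them among the 17, which assumes that PL 1 varies as the other pools do. Plxna2, Trhr, Lxn, Lifr, Setd2, Cnnm1, Kcnh7, Pdzrn3, Pirt and BC057022 were the 10 lost. With limma voom, Trhr, Sox6, Lxn, Setd2, Cnnm1, Kcnh7 and Pdzrn3 lost the call (adjusted p up to 0.371). Trhr was also lost without GS 3 or PL 3 (up to 0.0747) and Sox6 without GS 1 or GS 3 (up to 0.0906), Lxn without any GS library (up to 0.0906), and Lifr, Setd2, Cnnm1, Kcnh7, Pdzrn3 and BC057022 without any of 11 to 13 libraries (up to 0.283). Alcam, Isl1, Ncam2, Plxna2, Scg2 and Sst held without each single library. The count was 1646 without PL 1, when only PL 2 and PL 3 stood for the pool. It was 7 without GS 1, 6 without GS 3, 11 without GS 2, TA 1, EDL 1 or PL 3, and 10 without EDL 2, IF 1, IF 2 or IF 3. With only the 6 libraries of GS and PL in the fit, 0 genes were called by edgeR, with 636 at an unadjusted p under 0.05, against 719 called by DESeq2 and 20 by limma voom over all 15 libraries.

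Against IF, the other pool with Isl1, 18 genes were called (0.126%), 10 higher in GS (0.0697%) and 8 lower (0.0558%), with 639 genes at an unadjusted p under 0.05. Aldh1a2, which makes retinoic acid, stood at 226, 177 and 474 CPM in GS and at 3.77, 4.37 and 1.45 CPM in IF. Its difference of 6.50 ± 0.51 was the largest of the 10 (edgeR, Benjamini-Hochberg adjusted p 2.10e-06). The other 3 pools, at 341 to 906 CPM, overlapped GS. Crabp2, which binds retinoic acid, went the other way, with 1 read in GS and 122, 125 and 126 CPM in IF, a ratio of 0.000427 (95% counting interval 1.08e-05 to 0.00238).

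Beside Aldh1a2, Hoxc10, Calca, Nts and Sst, the higher genes against IF were Adra1b, Kcnc1, Cacng5, Rasgrf1 and Lrrc4c. Adra1b, an adrenergic receptor, stood at 90.2, 110.1 and 61.5 CPM in GS and at 3.87, 5.37 and 2.03 CPM in IF (4.53 ± 0.78, edgeR, Benjamini-Hochberg adjusted p 0.0209). Kcnc1, the fast potassium channel Kv3.1, stood at 155, 202 and 420.0 CPM in GS and at 38.2, 32.1 and 25.2 CPM in IF (3.02 ± 0.52, edgeR, Benjamini-Hochberg adjusted p 0.0219). Neither overlapped, and over the 4 pools Kcnc1 was at 1.67 ± 0.35 and did not pass (0.0893), the smallest p of 55 potassium channel genes, none of which was called. Kcnc1 was called over the 4 pools without PL 3 (adjusted p 0.0409), without PL 2 and PL 3 (0.0348), by DESeq2 (0.0185) and without the filter on low counts (0.00481). Adra1b lost its IF call without any 1 of GS 1, GS 2, IF 1, IF 2 and IF 3, and Kcnc1 without any 1 of GS 2, GS 3, IF 1, IF 2 and IF 3 (both up to 0.241). Cacng5, Rasgrf1 and Lrrc4c were likewise each lost without any of 5 libraries of GS and IF (up to 0.257). With limma voom, Adra1b, Kcnc1, Cacng5 and Lrrc4c lost the call against IF (up to 0.0696).

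Lower in GS than in IF were Cd24a, Lxn, Lifr, Thsd7a, Atp2b4, Crabp2, Reg3b and Vip. Lifr, the receptor of leukemia inhibitory factor, stood at 205, 190.3 and 337 CPM in GS and at 1471, 1268 and 1438 CPM in IF (-2.51 ± 0.34, edgeR, Benjamini-Hochberg adjusted p 0.00185), and over the 4 pools at -1.15 ± 0.28 (0.176). Lxn, a carboxypeptidase inhibitor, stood at 23.5, 20.1 and 16.8 CPM in GS and at 284, 329 and 311 CPM in IF (-3.93 ± 0.50, edgeR, Benjamini-Hochberg adjusted p 0.00113). Neither overlapped between GS and IF. Reg3b, a secreted lectin, had no read in GS, TA, EDL or PL against 75.6, 116 and 61.8 CPM in IF, so GS was at least 532-fold lower. Aldh1a2, Calca, Cd24a, Hoxc10, Lifr, Lxn and Nts kept their calls in edgeR without each single library, and of these Hoxc10 and Nts lost them with limma voom. Sst against IF was lost without any 1 of 10 libraries (up to 0.360), Crabp2 without GS 2, GS 3 or an IF library (up to 0.0667), Reg3b without any GS or IF library (0.224) Vip likewise and without PL 1 (0.246), Thsd7a without any GS or IF library (0.259) and Atp2b4 without any of 9 libraries (0.313). The count was 7 without GS 2, IF 1, IF 2 or IF 3, 9 without GS 3, 31 without PL 2, 39 without PL 3 and 77 without both of the last.

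The authors deposited lists from DESeq for the pairs with TA and IF. The authors' deposited table of genes higher in GS than in TA held 20 genes, among them the 4 called here, and that of genes higher in TA held 21, among them the 5 called here. The authors' deposited table of genes higher in GS than in TA also held Camk2a, Chrna3 and Pirt (adjusted p 0.00458, 0.00324 and 0.0268 from DESeq). These were called here over the 4 pools but not against TA. For IF the authors' deposited table of genes higher in GS held 49, with the 10 called here, and the reverse list held 41, with the 8 called here. In the authors' deposited table, Isl1 had a mean of 1193 in GS and 0 in TA (adjusted p 1.43e-08 from DESeq), and Aldh1a2 a mean of 2071 in GS and 22.3 in IF (adjusted p 1.44e-25 from DESeq), on the scale of normalized counts.

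Most other gene groups gave no call over the 4 pools. None was called among 16 retinoid genes (median log2 difference -0.35), 9 gamma motor neuron markers (0.24), 12 alpha motor neuron markers (0.59), 15 cadherins (-0.06, a list without Cdh17), 17 Eph receptors and ephrins (0.25), 29 semaphorins and their receptors (0.28), or 16 netrin and slit guidance genes (0.07). Nor was any among 18 neurotrophic factors and receptors (-0.07), 40 glutamate, GABA and glycine receptors (-0.01), 38 matrix and sulfation genes (0.26) or 17 axon injury genes (-0.17). Drd1a was the only 1 of 40 monoamine and peptide receptors called (median 0.63). These medians stand beside 0.04 over all genes.

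Summed over each of 4 other lists of cell markers, GS lay inside the range of the other 12 libraries. Oligodendrocyte markers summed to 633, 320 and 744 CPM in GS and to 275 to 2552 CPM in the others, and astrocyte markers to 3040.5, 2652 and 3408 CPM against 2211 to 5269 CPM. Microglia markers summed to 72.5, 74.6 and 44.1 CPM against 32.3 to 254 CPM, and blood cell markers to 9.21, 4.94 and 7.83 CPM against 1.92 to 55.6 CPM. No member of these 4 lists was called among 19, 16, 11 and 4 tested, and Opalin, Aif1 and Slc4a1 had no read in GS. Their part in the called differences was not tested.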

How the data were processed

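RNA of traced motor neurons was amplified with an Ovation kit (RNA-Seq System V2) and made into Nextera libraries, which keep no strand, per the labels' protocols. Reads were aligned with Bowtie 0.12.9 to mm9, per the submitters' processing notes. For the tool that counted reads per gene, the name is not given in the sources used here. In all, 36814 genes had read counts in the table that the authors deposited. The authors' count columns held 16 values below 0 in 4 genes, with no reason given, and these genes were dropped. The authors' deposited lists for pairs of pools give mean normalized counts, a signal on a linear scale, and adjusted p-values from DESeq, per the submitters' processing notes. The foot columns were matched to IF by name.

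Counts were tested with edgeR 4.0.16 in R 4.3.3 (TMM, filterByExpr by pool, glmQLFit and glmQLFTest), with 1 coefficient per pool over all 15 libraries. GS was set against the mean of the 4 other coefficients and against each pool, with Benjamini-Hochberg adjustment over the 14340 genes tested. From start to end, Ankrd45, Cacna2d1, Ncam2 and Pirt each overlap 1 other gene model. Exons were not compared, so whether any reads are shared is not known. No 2 libraries of a pool agreed within counting noise (chi-square at least 11.4 times its degrees of freedom). The lowest such ratio was 11.4 in IF, 44.8 in EDL, 47.7 in GS, 77.8 in TA and 149 in PL. The fit used 1 estimate of the spread per gene for all of these pools. Libraries held 4417114 to 8488368 counts, so a gene at 3 reads or fewer over a pool is at the limit, and counting intervals (95%, exact) cover counting error only. Alternatives were median-ratio scaling, no filter, DESeq2 1.42.0, limma voom (limma 3.58.1), the replicate number as a term, each library left out, PL 2 and PL 3 left out, the 12 others as 1 group, and only the 6 libraries of a pair.

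The genes and lists were chosen with earlier results of these data known. Named were called genes whose GS libraries lay apart from the 12 others, called list members or otherwise the 2 with the smallest p, up to 5 genes per direction and pair whose libraries did not overlap, and a set of motor pool genes, of which those with values to compare are described. Btbd11, Thbs2, Camk2a, BC057022 and Ankrd45, the called genes outside that rule, other pair genes and the relatives of called genes were added after their values were seen. Promoters came from RefSeq (GRCm38.p6), and gene coordinates are those of the count table.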

Additional observations from a re-analysis of the deposited data

How the results depend on the processing

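Median-ratio scaling left every count of calls as it was. Without the filter on low counts, 171 genes were called over the 4 pools, 55 against TA, 40 against EDL, 340 against PL and 76 against IF. DESeq2 called 89, 249, 78, 719 and 93 in the same order, and all 18 calls over the 4 pools were among its 89 and among the 171. Limma voom called 12 over the 4 pools, all higher in GS, where edgeR had 13 higher and 5 lower, and 14 against TA, 22 against EDL and 33 against IF. Of edgeR's calls it kept 10 of 18 over the 4 pools, 5 of 9 against TA, 7 of 10 against EDL, 10 of 17 against PL and 12 of 18 against IF. It moved the median of all genes to 0.15, and the cause was not tested. With the 12 others as 1 group, 0 genes were called by edgeR, with 447 at an unadjusted p under 0.05. The median of all genes was then -0.13, and Pirt reversed to -0.47. That fit compares GS with the mean level of the 12 libraries, while the main contrast averages the log levels of the 4 pools. Pirt had a mean of 19.9 CPM in GS and 27.6 CPM in the 12 others. The cause of the lost calls was not tested. With only the 6 libraries of a pair in the fit, 4 genes were called against TA, 22 against EDL, 0 against PL and 177 against IF. Over the 4 pools, Plxna2 and Lifr were called by DESeq2 (both 0.0221) and, as was Hoxc10, without the filter (0.0136, 0.0247 and 0.0195). Without PL 2 and PL 3, 39, 31 and 77 were called against TA, EDL and IF.

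Leaving out 1 library at a time gave 2 to 34 calls over the 4 pools, 2 to 21 against TA, 3 to 20 against EDL, 6 to 1646 against PL and 7 to 39 against IF. None of the 18 genes over the 4 pools reversed in these refits. With the replicate number as a term (a replicate block), 6 genes were called over the 4 pools and 11 against PL. Whether the numbers pair libraries across pools is not stated. Over 30 same-numbered pairs the correlation of deviations ran from -0.07 to 0.13, and 6 of 15 libraries matched best with their own number. With 3 libraries per pool, this check cannot decide whether mice or batches were shared. At 30 to 40 cells a library, genes of a few reads were uneven between libraries, and the absence of a call does not show equal levels.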
